A study of Mus musculus with 4 samples.

Results

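Prostaglandin E2 and extracellular adenosine are small mediators that tumors release and that dampen the activity of T cells and other immune cells. Prostaglandin E2 is made from arachidonic acid by a cyclooxygenase, PTGS1 (COX-1) or PTGS2 (COX-2), followed by a prostaglandin E synthase (PTGES, PTGES2 or PTGES3), and is inactivated by the dehydrogenase HPGD. Adenosine is made outside the cell when ENTPD1 (CD39) strips ATP and ADP to AMP and NT5E (CD73) turns AMP into adenosine, which the tumor cell itself can sense through the A2B receptor ADORA2B. These 9 genes, Ptgs1, Ptgs2, Ptges, Ptges2, Ptges3, Hpgd, Nt5e, Entpd1 and Adora2b, were taken by name from the 53379 genes counted. They were listed with earlier results of these data known. All 9 matched 1 gene identifier each.

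Their counts come from bulk RNA-seq of sorted MC38 tumor cells in 4 libraries, with 2 libraries for tumors the labels call non-responder and 2 for tumors they call responder. MC38 cells are an established colon adenocarcinoma line of the mouse, used here in a GFP+ version and grown under the skin of C57BL/6 mice from 50000 inoculated cells. Every mouse in both groups had received anti-PD-1, an antibody against the T cell checkpoint receptor PD-1, at a sub-optimal dose of 100 µg on days 12, 15, 18 and 22, so there is no untreated group. The labels do not say how response was scored, what age the mice were, or whether each library had a mouse of its own. P-values therefore rest on the spread between libraries of a group, which may be technical. Values below are given for replicates 1 and 2 of the non-responder group against replicates 1 and 2 of the responder group, in that order.

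Total counts were 18447041 to 21754063 per library. The labelled cell type could be checked only in part. Of 12 epithelial markers, 9 were too low to test in these cells. The 12 summed to 3.14 to 6.00 CPM (read counts scaled to a common library total by the TMM method). Lgals4 was the highest by mean at 1.52 to 1.94 CPM. Cdh1 reached 2.47 CPM in non-responder replicate 2, and Epcam was at no more than 0.16 CPM. Leukocyte transcripts were present in every library and varied within each group: Ptprc, which encodes CD45, had 5.94 and 22.6 CPM against 0.64 and 6.91 CPM. In bulk RNA, fewer cells of a type and less RNA per cell cannot be told apart.

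Fibroblast markers were abundant as a sum, though not each of them, and most had a lower mean in the responder libraries. The 19 of them summed to 14374 and 19952 CPM against 12518 and 10566 CPM, none of them at 0 in any library, and Col3a1, a fibrillar collagen gene, made up the largest share with 7598 and 13391 CPM against 6897 and 5792 CPM. Of the 19, Thy1, Pi16 and Tagln were too low to test. Acta2 and Mfap5 were tested but low, at no more than 3.41 and 1.03 CPM. Of 16 tested, 14 had a lower mean in responder libraries and 2 a higher one, at a median log2 fold change of -0.72. Wholly below the non-responder libraries were 9 of 16, against 17.7% of all tested genes, and 7 were lower at an unadjusted p under 0.05, against 3.63% of all genes, with none past the adjusted threshold. Pdgfrb, a growth factor receptor of fibroblasts and pericytes, had 220 and 198 CPM against 107 and 78.3 CPM (log2 fold change -1.18, SE 0.21, edgeR adjusted p = 0.334). Their part in the values of the 9 genes was not tested. Endothelial markers summed to 17.7 to 33.8 CPM, with Pecam1 (CD31) the highest of them by mean at 17.8 and 25.5 CPM against 6.34 and 11.6 CPM. Of 12 endothelial markers 8 were too low to test. Of the 4 tested, 2 had a higher mean in responder libraries and 2, Pecam1 included, a lower one, at a median log2 fold change of 0.15. T and NK cell markers summed to 0.45 to 3.14 CPM, with Cd3g at no more than 0.53 CPM.

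The libraries of sorted tumor cells had abundant transcripts of a cyclooxygenase and of prostaglandin E synthases and almost none of Hpgd. Entpd1 and Nt5e, the members that make adenosine, were near the bottom of the tested range. On a scale corrected for transcript length (TPM, counts per base of exon scaled to a common total), Ptgs2 had a mean of 194 over the 4 libraries, Ptges 159 and Ptges3 122, and 94.2%, 92.6% and 89.3% of the 13792 tested genes lay below them. Ptges2 followed at 12.8 TPM, Adora2b at 3.53, Entpd1 at 1.64, Ptgs1 at 1.15, Nt5e at 0.44 and Hpgd at 0.051. Ptgs2 and Ptges were not separated, since their ranges over the libraries overlapped and Ptgs2 was above Ptges in 3 of 4. From Ptges down to Adora2b the ranges of neighbours did not overlap. From Adora2b downward every gene overlapped the next in range, and Entpd1 was above Ptgs1 in 2 of 4 libraries.

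**Figure D1:**
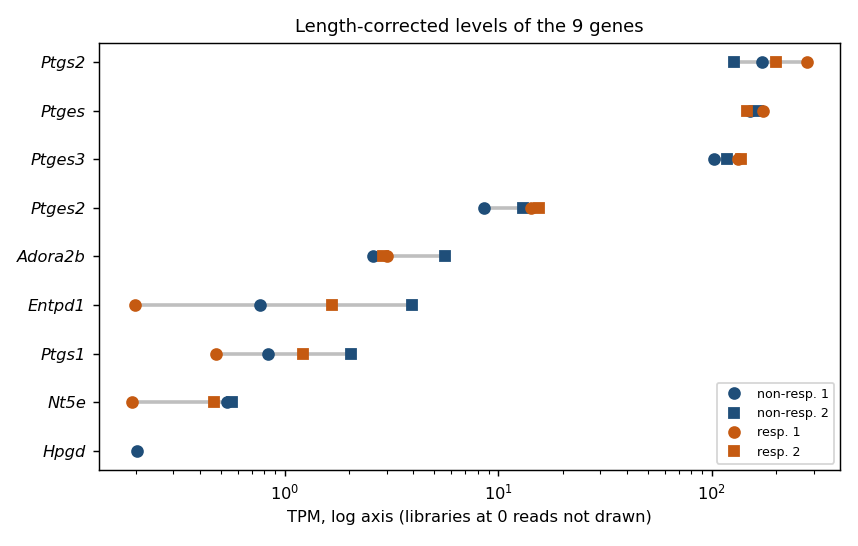
Length-corrected level (TPM, log axis) of each of the 9 genes, with 1 point per library (blue non-responder, orange responder, circles replicate 1, squares replicate 2) and a grey line over the range. Ptgs2, Ptges and Ptges3 all lie above 102 TPM in every library, while Entpd1, Ptgs1 and Nt5e stay under 4 TPM, and Hpgd has a point in 1 library only.

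The start regions of the leading pair are shown because Ptgs2 varied more between libraries than Ptges did. Both are 300 bases from RefSeq on GRCm38.p6, 250 before and 50 after the annotated start site, read 5′ to 3′ on the gene's own strand. Capitals mark matches on either strand to 5 motifs. The core of the cAMP response element (CRE) was searched as ACGTCA. The E-box was searched with the letters CACGTG. For the palindrome bound by C/EBP factors the run was TTGCGCAA. The letters used for a GC box were GGGCGG. For a TATA box they were TATAAA.
Ptgs2, chr1:150099781-150100080, plus strand: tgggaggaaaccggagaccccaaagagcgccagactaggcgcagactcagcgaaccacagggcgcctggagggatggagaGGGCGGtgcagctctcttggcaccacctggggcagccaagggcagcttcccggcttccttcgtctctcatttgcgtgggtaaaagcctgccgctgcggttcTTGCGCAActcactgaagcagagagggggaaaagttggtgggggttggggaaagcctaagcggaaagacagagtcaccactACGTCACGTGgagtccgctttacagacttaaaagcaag
Ptges, chr2:30903248-30903547, minus strand: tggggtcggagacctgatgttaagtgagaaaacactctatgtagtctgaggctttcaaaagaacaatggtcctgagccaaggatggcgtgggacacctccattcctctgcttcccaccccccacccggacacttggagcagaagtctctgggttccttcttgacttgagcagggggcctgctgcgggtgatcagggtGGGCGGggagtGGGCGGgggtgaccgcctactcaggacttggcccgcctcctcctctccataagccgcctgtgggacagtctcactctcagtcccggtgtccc
The Ptgs2 window held 1 match each to the CRE core, the E-box, the C/EBP palindrome and the GC box. The CRE core and the E-box overlap in the run ACGTCACGTG, which begins 12 bases after the annotated start. Of 32851 RefSeq windows of this length, 7.51% held the CRE core, 7.15% the E-box and 0.183% the C/EBP palindrome. The Ptges window held 2 GC boxes, a motif found in 35.7% of windows, and none of the other motifs. All 9 genes had a window, Entpd1 with 2. Beyond Ptgs2, the CRE core was found in 1 of the Entpd1 windows, the E-box in the Ptges2 window and a TATA box in the Hpgd window (13.6% of all windows). A match is a run of letters and not a measured binding site.

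The inducible cyclooxygenase gene Ptgs2 was the member of smallest p between the groups, although it did not pass the test over all genes. It had 223 and 150 CPM against 342 and 252 CPM. Both responder libraries were above both non-responder libraries, with responder replicate 1 the highest and non-responder replicate 2 the lowest. The means were 186 ± 51.7 and 297 ± 64.0 CPM (SD, n = 2 per group), a 1.59-fold difference with a log2 fold change of 0.67 (SE 0.26, 95% interval 0.077 to 1.27). edgeR's quasi-likelihood test gave an unadjusted p of 0.0314 and a Benjamini-Hochberg adjusted p of 0.762 over 13792 genes. With each library left out, the log2 fold change ran from 0.41, without non-responder replicate 2, to 0.99, without non-responder replicate 1. It was 0.43 without responder replicate 1. Ptgs2 spans chromosome 1 from 150100031 to 150108227 on mm10 (ENSMUSG00000032487), and its reads were counted over 4580 exonic bases.

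Its constitutive relative Ptgs1 was scarce and did not separate the groups. Ptgs1 had 0.92 and 2.06 CPM against 0.50 and 1.31 CPM, from 10 to 46 reads each. The log2 fold change was -0.73 (SE 0.63), and its interval of -2.18 to 0.72 spans a lower and a higher level. The estimate moved to -0.031 when non-responder replicate 2 was left out and to -1.58 when this was done with responder replicate 2. Per length, Ptgs2 transcripts outnumbered those of Ptgs1 in every library, 206-fold and 61.6-fold against 585-fold and 163-fold. A predicted gene on the opposite strand, Gm43621, overlaps 148 exonic bases of Ptgs1 and had at most 1 read in a library.

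Of the terminal synthases, Ptges, the inducible membrane enzyme usually coupled to COX-2, was at nearly the same level in the 4 libraries. It had 167 and 168 CPM against 183 and 158 CPM, and the responder values lie on either side of the non-responder ones. The log2 fold change was 0.03 (SE 0.18) with an interval of -0.38 to 0.45. The ratio of Ptgs2 to Ptges per length was 1.15 and 0.77 against 1.601 and 1.37, and was not tested.

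Ptges2 and Ptges3 were both slightly higher in the responder libraries, without passing the test. Ptges2, a membrane-associated synthase, had 12.2 and 17.0 CPM against 19.2 and 21.6 CPM, 1.39-fold higher (log2 fold change 0.48, SE 0.23, interval -0.064 to 1.02, adjusted p = 0.796). Ptges3, also known as the HSP90 co-chaperone p23 and present in most cell types, had 64.0 and 67.9 CPM against 78.7 and 83.8 CPM, 1.23-fold higher (log2 fold change 0.30, SE 0.16, interval -0.072 to 0.67, adjusted p = 0.818). In both genes the groups did not overlap, and non-responder replicate 1 was the lowest library. Ptges3 has a processed copy, Ptges3-ps, with 3 to 13 reads per library, and reads that fit both equally well are not in the counts. Its level is therefore uncertain.

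Hpgd, whose enzyme takes the first step in inactivating prostaglandin E2, had 2 reads in non-responder replicate 1 and 0 reads in the other 3 libraries. A count of 0 allows a level of up to 0.135 CPM in the other non-responder library, and of up to 0.149 CPM for replicate 1 and 0.157 CPM for replicate 2 of the responder group, taking 3 counts as the limit and covering counting error only. Hpgd was too low to be tested, so no difference between the groups was detectable at this depth.

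**Figure D2:**
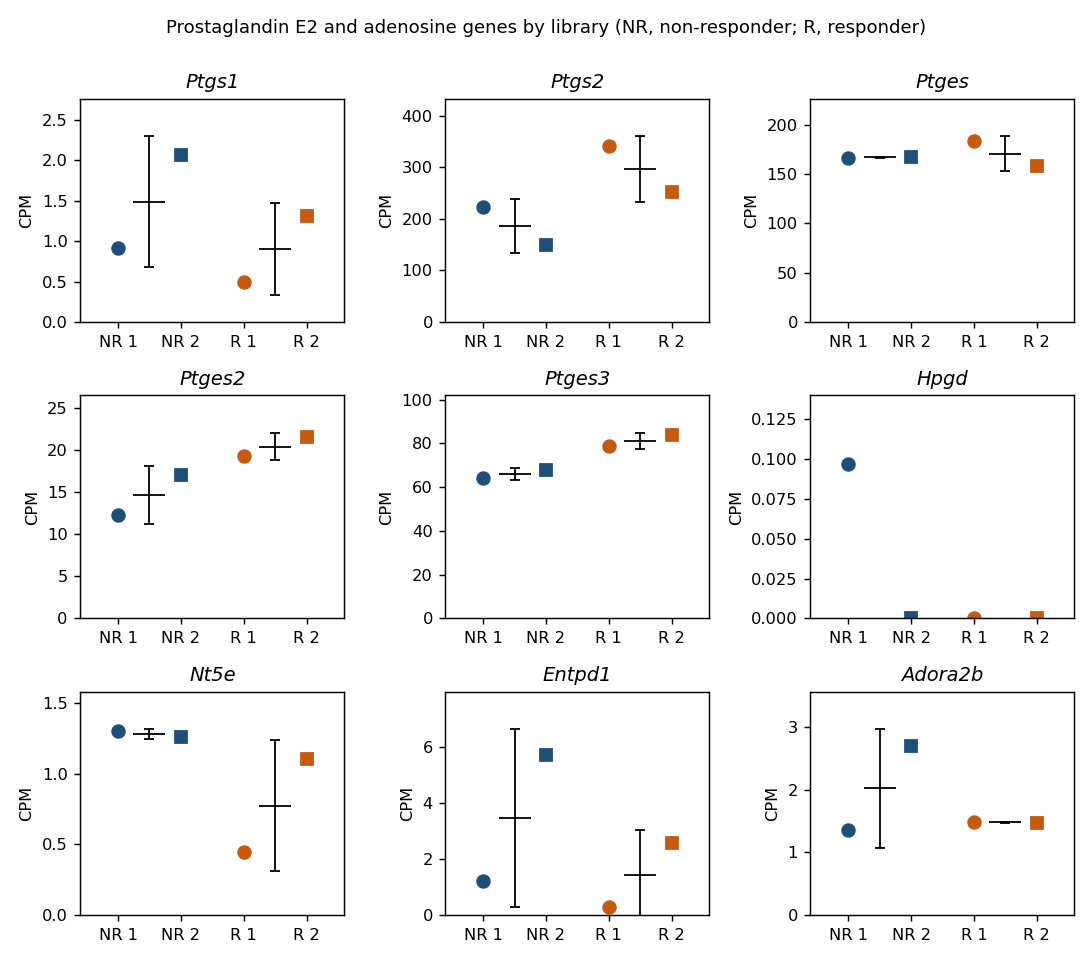
CPM of each of the 9 genes in the 4 libraries, each panel with its own axis from 0 (blue non-responder, orange responder, circles replicate 1, squares replicate 2; black bars are group means with SD, n = 2, cut at 0 and not drawn for Hpgd). Both responder points lie above both non-responder points for Ptgs2, Ptges2 and Ptges3 and below them for Nt5e, and the groups overlap in the other panels.

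Nt5e and Entpd1, the members that make adenosine, were scarce in the libraries of sorted tumor cells. Nt5e (CD73) had 1.30 and 1.26 CPM against 0.45 and 1.10 CPM, which rest on 27, 28, 9 and 21 reads. The groups did not overlap, but responder replicate 2 was close to both non-responder libraries and the low value belongs to responder replicate 1. The log2 fold change was -0.73 (SE 0.55, interval -1.99 to 0.54, adjusted p = 0.864). Without replicate 1 of the responders the estimate was -0.22, and it became -1.51 when replicate 2 of that group was left out.

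Entpd1 (CD39) varied more within each group than between them. It had 1.21 and 5.70 CPM against 0.30 and 2.57 CPM, from 25, 127, 6 and 49 reads. Non-responder replicate 2 was the highest library, followed by responder replicate 2, non-responder replicate 1 and responder replicate 1. The log2 fold change was -1.28 (SE 1.23), with an interval of -4.63 to 2.08 and an adjusted p of 0.902. Leaving out non-responder replicate 2 gave a log2 fold change of 0.24. Leaving out responder replicate 2 gave -3.51 with an adjusted p of 0.0385, in a fit where 1.04% of 14445 genes were called as lower and 1 responder library stood for its group.

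Entpd1 is also expressed by macrophages, lymphocytes and endothelium, and its library order was shared by most of the listed leukocyte transcripts. C1qa, a complement gene of macrophages, had 10.6 and 38.5 CPM against 1.04 and 13.7 CPM, and Csf1r, the receptor for macrophage colony-stimulating factor, had 8.36 and 27.3 CPM against 0.45 and 8.58 CPM. That order, from non-responder replicate 2 through responder replicate 2 and non-responder replicate 1 to responder replicate 1, was shown by 12 of 18 leukocyte markers and 11 of 18 tested macrophage and monocyte markers, against 4.73% of all tested genes. The order was taken from Entpd1 itself. Lsp1 and Lyz2, the highest of the 2 marker lists by mean, did not show it. In Csf1r, responder replicate 2 and non-responder replicate 1 were nearly level. Entpd1 and Ptgs1 were the members with this order.

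The leukocyte markers summed to 251 and 356 CPM against 136 and 196 CPM, with Tyrobp at 0 in responder replicate 1. Lsp1 alone made up 111 to 178 CPM of these sums in every library. The 21 macrophage and monocyte markers summed to 106 and 328 CPM against 28.3 and 113 CPM, with Lyz2 the highest by mean, Marco at 0 in every library and Ly6c2 at 0 in both replicates numbered 1. Of the markers tested, all 18 leukocyte and all 18 macrophage and monocyte genes had a lower mean in responder libraries, none past the adjusted threshold. Their part in the values of Entpd1 and Ptgs1 was not tested. The ratio of Entpd1 to Csf1r per length was 0.127 and 0.183 against 0.584 and 0.262, and was not tested. In responder replicate 1 it rests on 6 reads of Entpd1 and 9 of Csf1r.

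**Figure D3:**
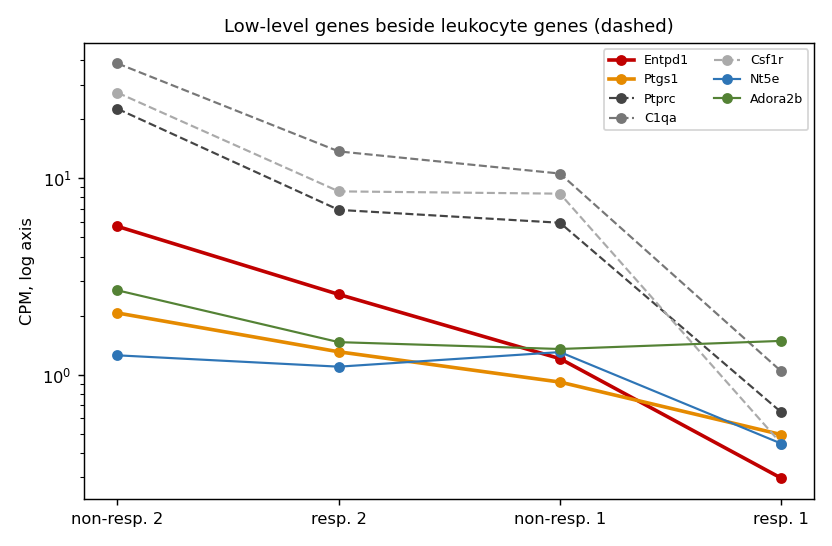
CPM (log axis) of 4 low-level genes of the pathway (solid lines) and 3 leukocyte genes (dashed lines) in each library, with the libraries placed in the order of their Entpd1 level. Entpd1 and Ptgs1 descend through the libraries as Ptprc, C1qa and Csf1r do, while Adora2b and Nt5e keep a different order.

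Adora2b, the low-affinity adenosine receptor, had 1.35 and 2.69 CPM against 1.49 and 1.47 CPM. The responder values lay between the non-responder ones, and non-responder replicate 2 alone stood higher. The log2 fold change was -0.45 (SE 0.47, interval -1.54 to 0.63, adjusted p = 0.903), and 0.12 without non-responder replicate 2. Among adenosine receptors it was the one detected at a testable level, since Adora1, Adora2a and Adora3 had a summed level of 0.050 to 0.22 CPM.

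**Figure D4:**
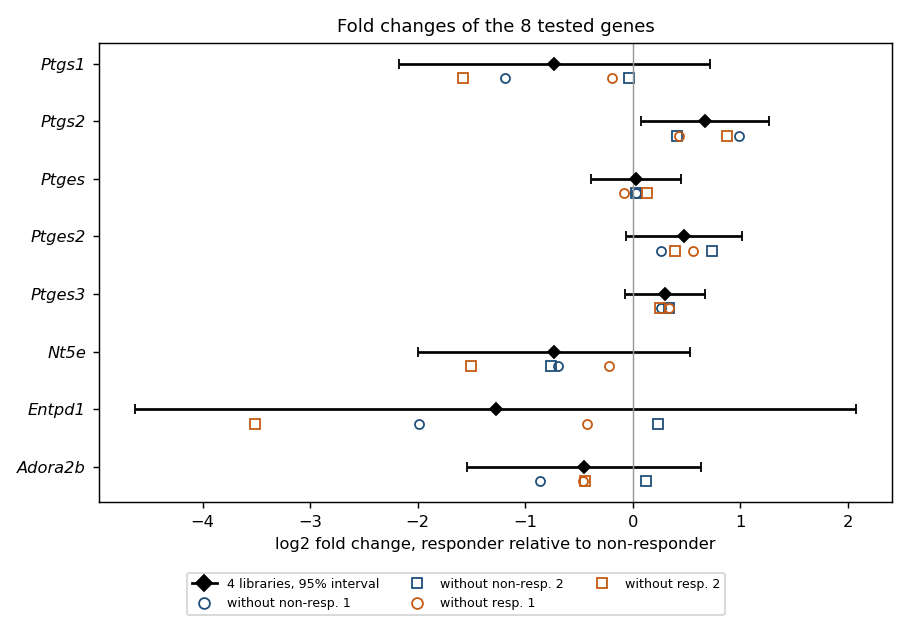
Log2 fold change of the 8 tested genes, responder relative to non-responder, with the 95% interval of the 4-library fit (black) and the value with each library left out (open symbols). The estimates for Ptgs2, Ptges2 and Ptges3 stay above 0 with any library left out, whereas those for Entpd1 run from -3.51 to 0.24.

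Counted together, the members were set beside all tested genes. With edgeR's test over 13792 genes, 0 of 8 tested members passed an adjusted p of 0.05, as did 0.0% of all genes. At an unadjusted p under 0.05 there was 1 member in the higher direction, Ptgs2, against 2.57% of all genes, and 0 in the lower, against 3.63%. DESeq2 called 0 members and 0.454% of genes, and limma-voom called 0 of either. Of the tested members 4 were higher and 4 lower in responder libraries, with a median log2 fold change of -0.21 beside -0.01 over all tested genes. Both responder libraries were above both non-responder libraries in 3 of 8 members, against 18.8% of all genes, and below them in 1 of 8, against 17.7%. The 3 were Ptgs2, Ptges2 and Ptges3.

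Among other genes that supply or handle prostaglandins, 16 of 23 tested genes were higher in responders, beside 6748 of 13792 over all tested genes. That base also holds for the direction counts of the other lists. The 23 come from lists of phospholipases A2, other prostanoid synthases, prostaglandin transport and breakdown, and prostanoid receptors. Their median log2 fold change was 0.12, and the direction of 1 of them, Pla2g6 near 0, turned with the scaling. None passed the adjusted threshold, and 5 lay wholly above the non-responder libraries, against 18.8% of all genes, and 5 wholly below, against 17.7%. Pla2g4a, the cytosolic phospholipase A2 that releases arachidonic acid for COX enzymes, had 34.2 and 39.9 CPM against 41.0 and 40.6 CPM. The gene of smallest p was Pla2g7, a phospholipase that degrades platelet-activating factor and oxidized lipids rather than feeding COX. It had 22.0 CPM in both replicates against 6.84 and 10.1 CPM (log2 fold change -1.38, SE 0.25, adjusted p = 0.348). DESeq2 called Pla2g7. Pla2g15, a lysosomal phospholipase and the highest of the phospholipases A2 per length, had 15.5 and 28.1 CPM against 25.4 and 21.3 CPM, so the groups overlapped.

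Several export and breakdown genes other than Hpgd were expressed. Abcc1, an efflux pump of broad range, was the highest of them per length and had 178 and 209 CPM against 236 and 226 CPM. Abcc4, the exporter best known for prostaglandin E2, had 28.2 and 22.6 CPM against 33.7 and 26.7 CPM, with overlapping groups. Slco2a1, a transporter gene of the same list, was scarce at 0.82 and 1.75 CPM against 1.54 and 1.26 CPM. Ptgr2, a reductase that acts on 15-keto prostaglandins downstream of HPGD, had 65.3 and 59.6 CPM against 53.5 and 44.3 CPM. Of the other prostanoid synthases, Akr1b3 (aldose reductase) had the smallest p, with 6.42 and 8.34 CPM against 11.5 and 10.5 CPM (log2 fold change 0.57, SE 0.26, adjusted p = 0.796). Cbr1, a carbonyl reductase that can turn prostaglandin E2 into prostaglandin F2α and the highest of the list per length, had 1.40 and 2.51 CPM against 1.83 and 2.41 CPM, with overlapping groups. Hpgds, which makes prostaglandin D2, had 1.30 and 3.27 CPM against 0.10 and 1.36 CPM, and with Tbxas1 it shared the library order of Entpd1.

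The libraries of sorted tumor cells held few transcripts for prostanoid receptors. Of 9 receptor genes 7 were too low to test, including the prostaglandin E2 receptor genes Ptger2 and Ptger3. Ptger4, which encodes the EP4 receptor for prostaglandin E2, was the highest of them per length, and it had 2.17 and 3.68 CPM against 0.84 and 1.57 CPM. Both responder libraries were below both non-responder libraries (log2 fold change -1.28, SE 0.49, unadjusted p = 0.0317, adjusted p = 0.762), on 17 to 82 reads.

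Several wider adenosine genes had far more reads than Nt5e. Acpp, which encodes an acid phosphatase with a transmembrane form able to split AMP, had 45.5 and 77.8 CPM against 67.3 and 97.1 CPM. Per length it was 40.9-fold to 177-fold above Nt5e. Acpp was named after its values were seen. The ectonucleotidase list also takes in enzymes that act inside the cell, such as Entpd7 and Acp2. Among its 10 tested genes 2 were higher and 8 lower in responders (median log2 fold change -0.34). Wholly below were 5, Entpd7 and Acp2 included, against 17.7% of all genes, and 0 were wholly above, against 18.8%. The direction of 1 of the 10, Entpd6 near 0, turned with the scaling. Cd38, an enzyme that consumes NAD outside the cell, had the smallest p of them, with 13.7 and 9.82 CPM against 4.31 and 5.34 CPM (log2 fold change -1.29, SE 0.29, adjusted p = 0.455). Enpp2 (autotaxin), the highest of them per length, had 51.2 and 118 CPM against 124 and 49.7 CPM, so the groups overlapped fully.

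Of 7 tested genes for adenosine removal and transport 6 were higher in responders and 1 was lower. Wholly above the non-responder libraries were 5, against 18.8% of all genes, and 1 was wholly below, against 17.7%. None passed the adjusted threshold. The median log2 fold change of the list was 0.25. The nucleoside transporter genes Slc29a1 and Slc29a2 had 50.5 and 65.4 against 71.8 and 85.6 CPM and 10.1 and 11.2 against 16.6 and 18.2 CPM. For Slc29a2 the log2 fold change was 0.70 (SE 0.22, adjusted p = 0.674). The lower one was Slc29a3, a transporter of intracellular membranes, with 25.4 ± 3.44 CPM against 17.3 ± 0.016 CPM (SD, n = 2 per group). Over the ATP release and P2 receptor genes 2 of 9 were higher and 7 lower. Wholly below were 3, against 17.7% of all genes, and 0 were wholly above, against 18.8%. P2ry12, an ADP receptor of macrophages and platelets, had 26 and 25 reads against 2 and 3 reads, and Gja1 (connexin 43), the highest per length, had 365 and 296 CPM against 358 and 273 CPM.

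**Figure D5:**
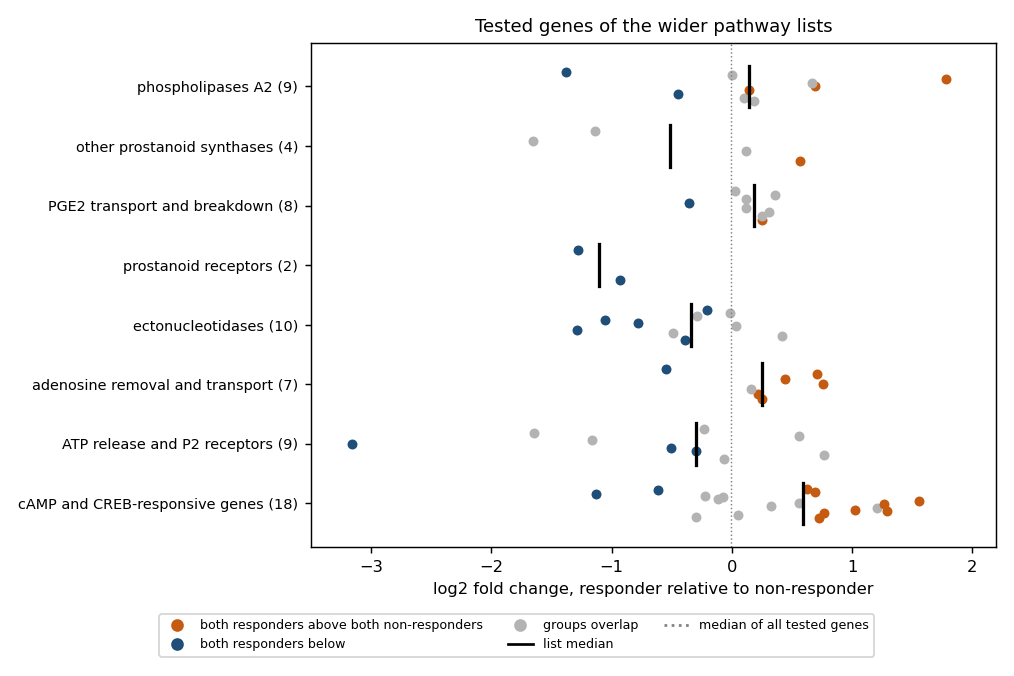
Log2 fold change (responder relative to non-responder) of each tested gene in 8 lists of the wider pathway, with the number tested in brackets, the list median as a black bar and the median of all tested genes as a dotted line. Orange points have both responder libraries above both non-responder libraries and blue points have both below. Points of the ectonucleotidase list, which includes some intracellular enzymes, lie mostly left of 0 and adenosine removal points mostly right, none past the adjusted threshold.

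Ptgs2 is induced by cAMP signals and by immediate early stimuli, as are many genes of the CREB-responsive list. Of 18 tested genes of that list 12 were higher in responders, and the median log2 fold change was 0.59. The list was chosen with earlier results of these data known, so its shares are a description only. Of these 18 genes, 7 were higher at an unadjusted p under 0.05, against 2.57% of all genes, and 1 was lower, against 3.63%. None passed over all genes. The lower one was Pde4d, with 5.94 and 4.22 CPM against 2.18 and 2.46 CPM (log2 fold change -1.13, SE 0.36). Wholly above the non-responder libraries were 8 of the 18, against 18.8% of all genes. Wholly below were 2, Pde4d and Rgs2, against 17.7%. Crem had a log2 fold change of 0.05. Nr4a1, an orphan nuclear receptor gene and the one of smallest p, had 31.3 and 28.3 CPM against 76.1 and 67.0 CPM, and Fos, the highest per length, had 213 and 203 CPM against 240 and 607 CPM. Ptgs2 was highest in responder replicate 1, as were Nr4a2 and Nr4a3, while Fos, Fosb and Egr1 were highest in responder replicate 2. Their part in the Ptgs2 values was not tested.

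Among the 5 genes most like Ptgs2 across the 4 libraries were Ovgp1, Chml, Hectd2 and Hmga1, out of 9743 genes with a mean of at least 5 CPM, by the distance between log2 CPM values centred on each gene's own mean (0.160 to 0.276 log2 units). Those most like Entpd1 were Fgl2, Sirpa, Dock10, Xist and Ptprc, at 0.611 to 0.925 log2 units, so the nearest gene was farther away than the fifth for Ptgs2. Sirpa, a receptor of myeloid cells for CD47, had 5.31 and 18.5 CPM against 1.19 and 6.33 CPM. With 4 libraries, many genes can share a profile, and these lists are a description only.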

How the data were processed

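RNA of sorted tumor cells was captured with oligo-dT beads and made into stranded libraries, per the labels' protocols. The submitters' processing notes name STAR and mm10 (GRCm38). The deposited values are raw counts per gene, made by the authors with featureCounts 1.6.1, reverse-stranded (setting 2), on Ensembl release 91, per the file headers. Multi-mapping reads were not asked for, so genes with near-identical copies can be undercounted. Symbols matched 53274 of 53379 identifiers.

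Genes were kept by filterByExpr (minimum count 10), scaled by TMM (factors 0.952 to 1.036) and tested with edgeR 4.0.16 in R 4.3.3 by a robust quasi-likelihood test on all 4 libraries with group as the only term, with Benjamini-Hochberg adjustment over 13792 genes. SE was derived from the fold change and the F statistic of each gene. The fit was tested on simulated data. TPM was computed from counts and exon lengths. Intervals are 95%.

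The members and gene lists were chosen with earlier results of these data known. All members are described; from each wider list the gene of smallest p and the gene of highest mean TPM are named, with several preset cell type markers, the marker of highest mean CPM in each marker list and the 5 nearest profiles to Ptgs2 and Entpd1. 1 of these genes is not reported here. Other list genes were chosen for naming with their values in view. Alternatives were RLE, upper-quartile and library-size scaling, DESeq2 1.42.0, limma-voom (limma 3.58.1), no filter, a filter of 5 CPM in 2 libraries, a replicate block and each library left out.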

Additional observations from a re-analysis of the deposited data

How the results depend on the processing

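Of 92 values of the 8 tested members under alternatives, 88 kept their direction and their side of the threshold. The direction turned for Ptges without responder replicate 1 (log2 fold change -0.082) and, without non-responder replicate 2, for Entpd1 (0.24) and Adora2b (0.12). With each library left out, Ptges ran from -0.082 to 0.14, Adora2b from -0.86 to 0.12, Ptgs1 from -1.58 to -0.031 and Nt5e from -1.51 to -0.22. Entpd1 passed without responder replicate 2 (-3.51, adjusted p = 0.0385), and over its alternatives with a library left out it ran from -3.51 to 0.24. The number of members called was 0 to 1 with a library left out and 0 under all other alternatives. Over all genes, 0 passed in the 4-library edgeR fit (856 at an unadjusted p under 0.05), 64 with DESeq2, 212 without a low-count filter, 0 with limma-voom, and 41 to 516 with a library left out. Over the wider lists, 0 genes passed, against 3 with DESeq2 (Egr1, Nr4a1 and Pla2g7), 8 without a filter, and 1 to 9 with a library left out. The causes were not tested. The filter of 5 CPM in 2 libraries removed Ptgs1, Nt5e, Entpd1 and Adora2b, which have no value there. With the replicate number as a block, 32 genes passed over all genes, 1 over the wider lists (Nr4a1) and 0 members. Same-numbered libraries share only a number, and the correlation of their deviations across genes was 0.39. A left-out library leaves 1 in its group, which is then assumed to vary like the other group. Depth limits Ptgs1, Nt5e, Entpd1, Adora2b and Hpgd, which rest on 127 reads or fewer in a library.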
